A study of Mus musculus with 12 samples.

Results

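The IκB proteins hold NFκB in check or steer it on DNA, and 6 of their genes were read here in mouse neutrophils: the classical members *Nfkbia* (IκBα), *Nfkbib* (IκBβ) and *Nfkbie* (IκBε) and the nuclear members *Nfkbiz* (IκBζ), *Nfkbid* (IκBNS) and *Bcl3* (BCL-3). They were found by gene symbol in the annotation of the array, which named a single gene for 21789 of the 28848 transcript clusters tested. Each of the 6 genes had 1 transcript cluster, a set of probes that usually reads the transcripts of a single gene, so that 6 of 6 were measured. The question asked of them was how their RNA levels differed between immune complex (IC) and control surfaces, with and without the CARD9 adapter, and whether classical and nuclear members behaved differently.

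Bone marrow neutrophils (labelled Ly6G+) of *Card9*-/- mice and of wild-type (WT) mice, both on the C57BL/6 background, were kept for 4 h either on immobilized ICs, made of human serum albumin and antibody against it, or on human serum albumin alone as the control. The *Card9*-/- mice were homozygous for the conventional *Card9*tm1Jrld knockout in all tissues, and mice of both sexes aged 2 to 6 months were used in the study. The 4 groups, *Card9*-/- IC, WT IC, *Card9*-/- control and WT control, had 1 array each in 3 experiments done at separate times, which gave 12 arrays. How many mice stood behind an array was not stated, and adherent and non-adherent cells were lysed together. Values are log2 signals normalized by the authors, on which a difference of 1 is a 2-fold change, and levels are compared between samples for the same gene only.

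Classical IκB proteins bind NFκB dimers in the cytoplasm. When a receptor activates the IκB kinase, they are phosphorylated, tagged with ubiquitin and degraded, and the freed dimers enter the nucleus. The genes of several IκB proteins are themselves NFκB targets, so that their RNA is a readout of the pathway as well as its brake. The nuclear IκB proteins are mostly made after stimulation and bind NFκB on DNA, where they raise or lower the transcription of selected genes. CARD9 links Syk-coupled receptors to this pathway through BCL10 and MALT1.

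Promoter sequences from RefSeq (GRCm38.p6, 250 bases before to 50 bases after a transcript start) were matched for 5 of the 6 genes (not *Nfkbiz*) and are shown because the 6 genes were lower together in the main comparison. They were searched on both strands for the 10-base κB consensus, the DNA motif bound by NFκB. Of 32851 windows of 300 bases of all genes, 8.46% held at least 1 match. The 5 genes had 7 windows, of which 4 held a match, 1 in each of 4 genes. Capitals mark the matches in the sequences that follow, each written 5′ to 3′ on the strand of its gene.
*Nfkbia* (chr12:55492648-55492716, minus strand): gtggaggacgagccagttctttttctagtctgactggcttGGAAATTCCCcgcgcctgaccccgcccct
*Nfkbie* (chr17:45555554-45555643, plus strand): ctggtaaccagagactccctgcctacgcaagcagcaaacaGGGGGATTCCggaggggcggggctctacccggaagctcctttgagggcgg
*Nfkbid* (chr7:30422156-30422274, plus strand): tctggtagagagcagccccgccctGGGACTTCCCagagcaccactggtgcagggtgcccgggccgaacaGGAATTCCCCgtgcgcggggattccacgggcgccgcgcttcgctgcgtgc
*Bcl3* (chr7:19822744-19822773, minus strand): ttcagttcagtcggcggcagGGGAAGTCCC

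Counted from the transcript start, the match of *Nfkbia* lay at bases -29 to -20 and that of *Nfkbie* at -106 to -97. *Nfkbid* has 3 annotated starts in the table, and the window of the second held 2 matches, at -226 to -217 and at -181 to -172. The match of *Bcl3* lay just past the start, at bases 3 to 12. The consensus was not among the letters of the *Nfkbib* window. A match of letters is a description and not a measurement of binding, and its relation to the signals was not tested.

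*Card9* itself was lower in *Card9*-/- cells by a log2 difference of -2.27 on ICs (limma adjusted p = 0.00482) and of -2.52 on the control surface (adjusted p = 0.00225), in 3 of 3 experiments each. All 10 neutrophil markers had a signal above the 90th percentile of the array on all 12 arrays, whereas 0 of 7 B-cell, 0 of 8 monocyte, 0 of 5 T-cell, 0 of 4 erythroid and 1 of 8 eosinophil, basophil and mast cell markers did. In whole samples of this kind, fewer cells of a type and less RNA per cell cannot be told apart. Arrays of the same group correlated at 0.946 to 0.985 across clusters, array medians were 5.27 to 5.93, and the number of arrays limits the precision.

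The clearest difference was between the genotypes on ICs. All 6 IκB genes had a lower signal in *Card9*-/- IC cells than in WT IC cells in all 3 experiments, and for all 6 the highest of the 3 *Card9*-/- arrays lay below the lowest of the 3 WT arrays. Over all clusters, the share whose groups were separated in this direction was 1.03%, and 15.4% were lower in all 3 experiments. The difference passed the limma test for 2 of the 6, the classical *Nfkbib* and the nuclear *Nfkbid* (0.118% of all clusters were called lower). An unadjusted p under 0.05 was found for 6 of the 6 (5.1% of all clusters on the lower side), and the median log2 difference of the 6 was -1.22, against -0.014 for all clusters.

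*Nfkbid* encodes IκBNS, a nuclear regulator of cytokine genes. Its signal in *Card9*-/- IC cells was 9.44, 9.43 and 10.19 in experiments 1, 2 and 3, against 10.85, 10.69 and 11.05 in WT IC cells. Each *Card9*-/- array was below every WT array, and the lowest of the WT values exceeded the highest *Card9*-/- value by less than the spread within the *Card9*-/- group. The log2 difference was -1.18 (standard error 0.13, 95% confidence interval -1.47 to -0.89, n = 3 experiments, limma adjusted p = 0.00618), a level 2.27-fold lower in *Card9*-/- cells.

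*Nfkbib* encodes IκBβ, a cytoplasmic inhibitor that is degraded more slowly than IκBα. Its signal was 9.54, 9.72 and 10.43 in *Card9*-/- IC cells, against 10.57, 11.21 and 11.10 in WT IC cells. Experiment 2 showed the widest gap and experiment 3 the narrowest, without overlap of the groups. The log2 difference was -1.07 (standard error 0.17, 95% confidence interval -1.43 to -0.70, limma adjusted p = 0.0388), a level 2.09-fold lower.

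*Nfkbia* encodes IκBα, the main fast inhibitor of the canonical pathway. It had a signal of 10.17, 10.74 and 11.18 in *Card9*-/- IC cells, against 12.02, 12.29 and 11.96 in WT IC cells. The WT arrays lay within 0.33 of each other and the *Card9*-/- arrays within 1.02. The log2 difference of -1.39 (standard error 0.26) missed the threshold of 0.05 (limma adjusted p = 0.0694).

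*Nfkbie* encodes IκBε, which binds mainly RelA- and c-Rel-containing dimers. Its signal was 7.51, 7.23 and 8.36 in *Card9*-/- IC cells, against 9.05, 9.48 and 9.16 in WT IC cells, the widest mean gap of the 6 genes. The difference ran between -2.25 in experiment 2 and -0.80 in experiment 3. With a log2 difference of -1.53 (standard error 0.37), it did not pass (limma adjusted p = 0.173).

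Among the nuclear members, *Nfkbiz*, whose product IκBζ is needed for a second wave of genes in mouse macrophages, had 9.20, 9.94 and 9.34 in *Card9*-/- IC cells, against 10.33, 11.01 and 10.24 in WT IC cells. Its difference was the most even over experiments, at -1.13, -1.07 and -0.90, with a mean of -1.03 (standard error 0.20, limma adjusted p = 0.0835). *Bcl3*, whose product can act on p50 and p52 homodimers as a coactivator or as a repressor, had 8.74, 9.69 and 9.16 against 10.40, 10.86 and 10.09 in the same groups. The mean difference of *Bcl3* was -1.25 (standard error 0.32, limma adjusted p = 0.181).

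**Figure D1:**
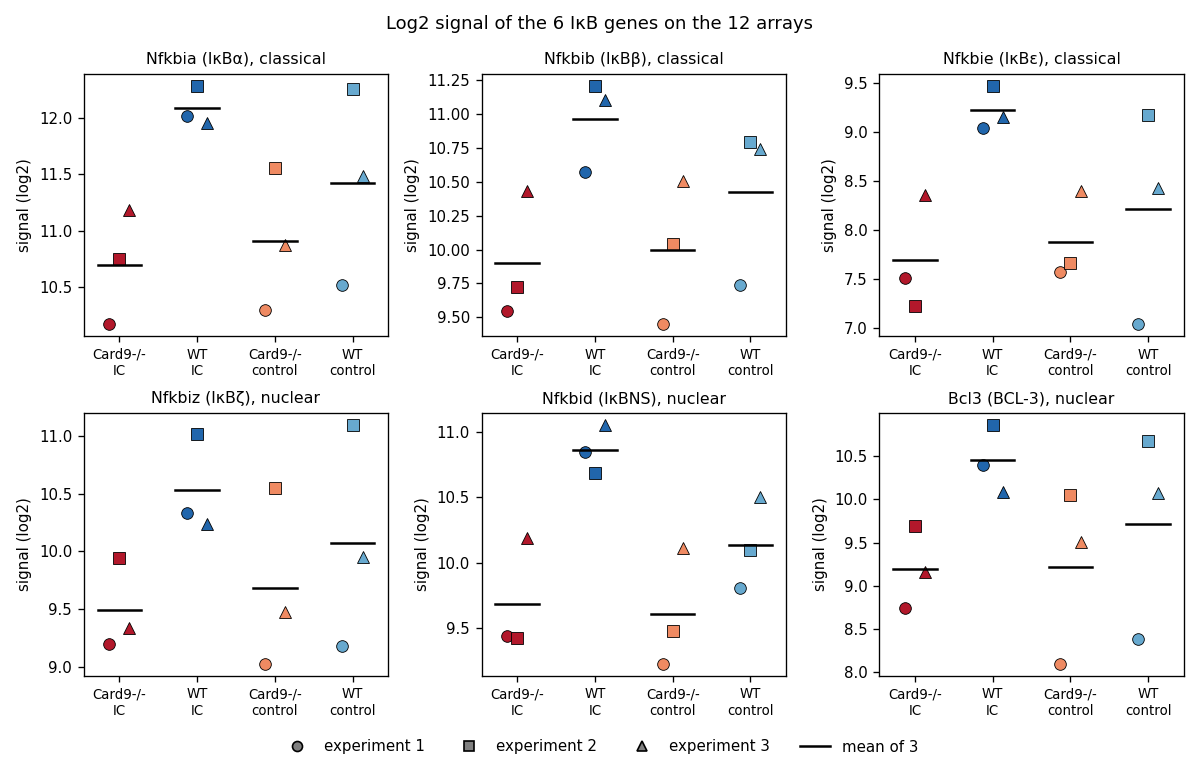
Log2 signal (vertical axes, a separate scale for each gene) of the 6 IκB genes in the 4 groups, with a symbol for each experiment and a black bar for the mean of 3 arrays. In every panel the 3 *Card9*-/- IC arrays lie below the 3 WT IC arrays, while the arrays on the control surface overlap.

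Which genes passed depended on the fit. Without the replicate block for the experiment 0 of the 6 passed (limma adjusted p = 0.99998 for *Nfkbib* and *Nfkbid*), and without experiment 2 also 0, at log2 differences of -1.14 for *Nfkbid* and -0.85 for *Nfkbib* (adjusted p = 0.246 and 0.41). *Nfkbib* also missed the threshold after quantile normalization (limma adjusted p = 0.0807), after median centring (adjusted p = 0.0754), and without experiment 1 (adjusted p = 0.154), where *Nfkbid* and *Bcl3* were the 2 genes that passed (adjusted p = 0.0448 each).

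Markers of other cells were read beside this result. Over all 28848 clusters, 13404 were higher on average in *Card9*-/- IC than in WT IC cells, 1162 at an unadjusted p under 0.05. The summed signal of the 7 measured B-cell markers was 295 to 5205 in *Card9*-/- IC cells and 282 to 3531 in WT IC cells, with 7 of 7 higher on average, 4 at an unadjusted p under 0.05 and 0 past the adjusted threshold. The median log2 difference of these markers was 0.67 (1.36, 0.025 and 0.68 in experiments 1, 2 and 3), where that of the 6 IκB genes was -1.47, -1.37 and -0.84. For 8 eosinophil, basophil and mast cell markers the sum was 2948 to 7734 in *Card9*-/- IC cells and 2185 to 4367 in WT IC cells, with 8 of 8 higher on average, 0 at an unadjusted p under 0.05 and a median of 0.31 (-0.12, 0.13 and 0.85). The 5 T-cell markers were also higher on average in 5 of 5, with a median of 0.24, and the 8 monocyte markers in 4 of 8. The part of these cells in the result was not tested. The 10 neutrophil markers had a median of 0.083 (0.16, 0.15 and -0.080 in experiments 1, 2 and 3). Of these markers, 9 were higher on average, with 0 at an unadjusted p under 0.05.

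On the control surface the same direction was seen with smaller values. The 6 genes had a median log2 difference between *Card9*-/- and WT cells of -0.46, against 0.026 for all clusters. The arrays of the genotypes were separated for 0 of the 6 (0.783% of all clusters were), and 5 of the 6 were lower in all 3 experiments, which held for 12.8% of all clusters. With limma, 0 of the 6 passed (0.0381% of all clusters were called lower), and 2, *Nfkbid* and *Nfkbib*, had an unadjusted p under 0.05 (2.22% of all clusters did on this side). The factorial test also gave 0. The B-cell markers were higher on average in *Card9*-/- control cells in 7 of 7, with a median log2 difference of 0.52 (1.13, -0.03 and 0.40 in experiments 1, 2 and 3), and the eosinophil, basophil and mast cell markers in 7 of 8, with a median of 0.28, each with 0 at an unadjusted p under 0.05. Among all 28848 clusters, 16580 were higher on average in *Card9*-/- control cells. Of the 10 neutrophil markers, 9 were lower on average, as were 12268 of all clusters. Their median was -0.068 (-0.044, 0.11 and -0.21), with 0 at an unadjusted p under 0.05. The part of these cell types in the result was not tested.

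*Nfkbid* had 9.22, 9.47 and 10.11 in *Card9*-/- control cells, against 9.80, 10.10 and 10.50 in WT control cells. Within each experiment the *Card9*-/- array was lower, by 0.58, 0.63 and 0.39, but the groups overlapped because experiment 3 was high in both genotypes. The mean difference was -0.53 (standard error 0.13, limma adjusted p = 0.668).

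For *Nfkbib*, *Nfkbia*, *Bcl3* and *Nfkbiz* the mean log2 differences on the control surface were -0.42, -0.51, -0.50 and -0.39, lower in 3 of 3 experiments for each. *Nfkbie* differed from the other 5 in its direction over experiments. It had 7.57, 7.67 and 8.41 in *Card9*-/- control cells, against 7.04, 9.18 and 8.44 in WT control cells, which gave differences of 0.53, -1.51 and -0.03. Without experiment 2 its mean turned to 0.25.

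**Figure D2:**
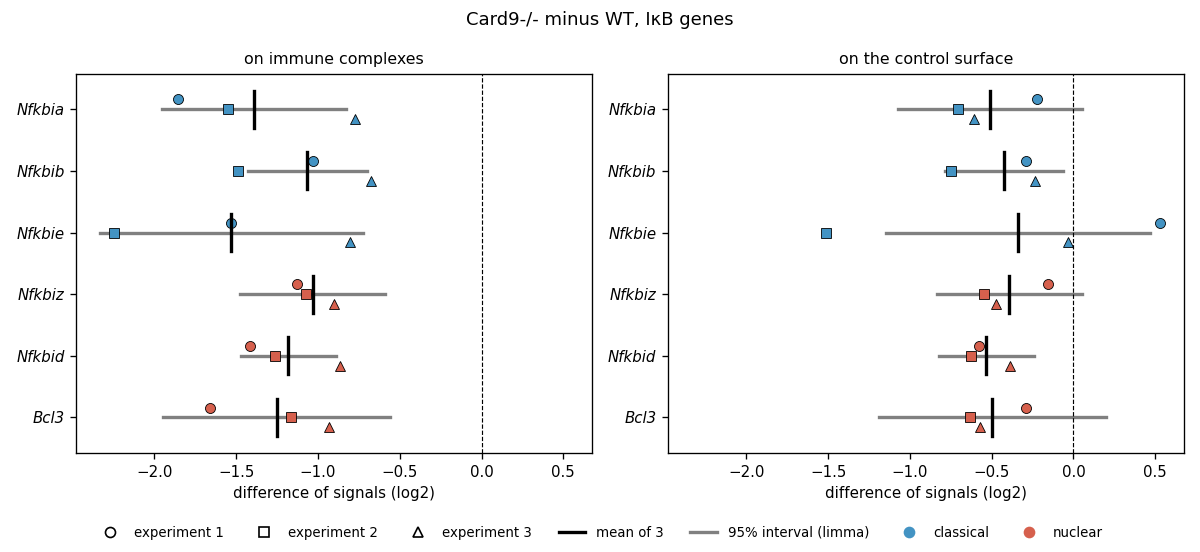
Log2 difference between *Card9*-/- and WT cells (horizontal axis) on ICs (left) and on the control surface (right) for the 6 genes. A symbol marks an experiment, a black tick the mean of 3, grey lines are 95% confidence intervals from limma and colours are the 2 classes. On ICs all 18 symbols lie below 0; on the control surface only *Nfkbie* in experiment 1 lies above it.

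In *Card9*-/- cells the mean differences of the 6 genes between ICs and the control surface were small. Single experiments ran between -0.82 for *Nfkbia* in experiment 2 and 0.64 for *Bcl3* in experiment 1. The median log2 difference of the 6 genes was -0.14, with 1 of the 6, *Nfkbie*, lower in all 3 experiments (14.7% of all clusters). With limma, 0 of the 6 passed (0% of all clusters were called in either direction) and 0 had an unadjusted p under 0.05 (1.86% of all clusters did on the higher and 1.15% on the lower side), and the factorial test also gave 0. The means ran between -0.21 for *Nfkbia* and 0.080 for *Nfkbid*, whose 95% confidence interval was -0.21 to 0.37. The intervals of *Nfkbie* (-0.99 to 0.62) and *Bcl3* (-0.71 to 0.67) were the widest. In experiment 2 all 6 genes were lower on ICs in *Card9*-/- cells, by 0.05 for *Nfkbid* and by 0.82 for *Nfkbia* at the ends of the range, and the group means without that experiment turned to 0.093, 0.0074, 0.019 and 0.15 for *Nfkbia*, *Nfkbib*, *Nfkbiz* and *Bcl3*.

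In WT cells the mean of each of the 6 genes was higher on ICs, with a median log2 difference of 0.70 against 0.039 for all clusters. The difference was above 0 in all 3 experiments for 5 of the 6, all but *Nfkbiz* (18.8% of all clusters were). With limma, 0 of the 6 passed (0% of all clusters did), 6 had an unadjusted p under 0.05 on the higher side (5.18% of all clusters did), and the factorial test gave 0.

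In WT cells *Nfkbid* had 10.85, 10.69 and 11.05 on ICs, against 9.80, 10.10 and 10.50 on the control surface. It was the single member of which all 3 IC arrays lay above all 3 control arrays (0.901% of all clusters did), with a log2 difference of 0.73 (standard error 0.13, limma adjusted p = 0.226). *Nfkbib* gave 0.54 (0.84, 0.42 and 0.36 in experiments 1, 2 and 3). These 2 genes had the smallest spread of the response between experiments, with SDs of 0.28 and 0.26.

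For the other 4 genes the difference was also largest in experiment 1, as it was for *Nfkbid* and *Nfkbib*. *Bcl3* had 10.40, 10.86 and 10.09 in WT IC cells, against 8.39, 10.68 and 10.08 in WT control cells, which gave differences of 2.01, 0.18 and 0.01. *Nfkbie* gave 2.01, 0.30 and 0.72, *Nfkbia* 1.51, 0.03 and 0.47, and *Nfkbiz* 1.15, -0.08 and 0.29.

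In WT cells the control arrays of every IκB gene spanned more than its IC arrays. The control and IC spans were 0.70 and 0.37 for *Nfkbid*, and 1.05 and 0.64 for *Nfkbib*. For *Nfkbia* the WT control arrays spanned 1.75 on the log2 scale and the WT IC arrays 0.33. For *Nfkbie* the WT control arrays spanned 2.14 and the WT IC arrays 0.43, and for *Bcl3* these spans were 2.29 and 0.77. For *Nfkbiz* they were 1.91 and 0.77. For every gene but *Nfkbid* the lowest WT control array was that of experiment 1 and the highest that of experiment 2. For *Nfkbid* the lowest was also that of experiment 1 and the highest that of experiment 3. Without experiment 1 the mean responses of *Bcl3*, *Nfkbiz*, *Nfkbia* and *Nfkbie* were 0.095, 0.10, 0.25 and 0.51, and those of *Nfkbib* and *Nfkbid* 0.39 and 0.57.

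**Figure D3:**
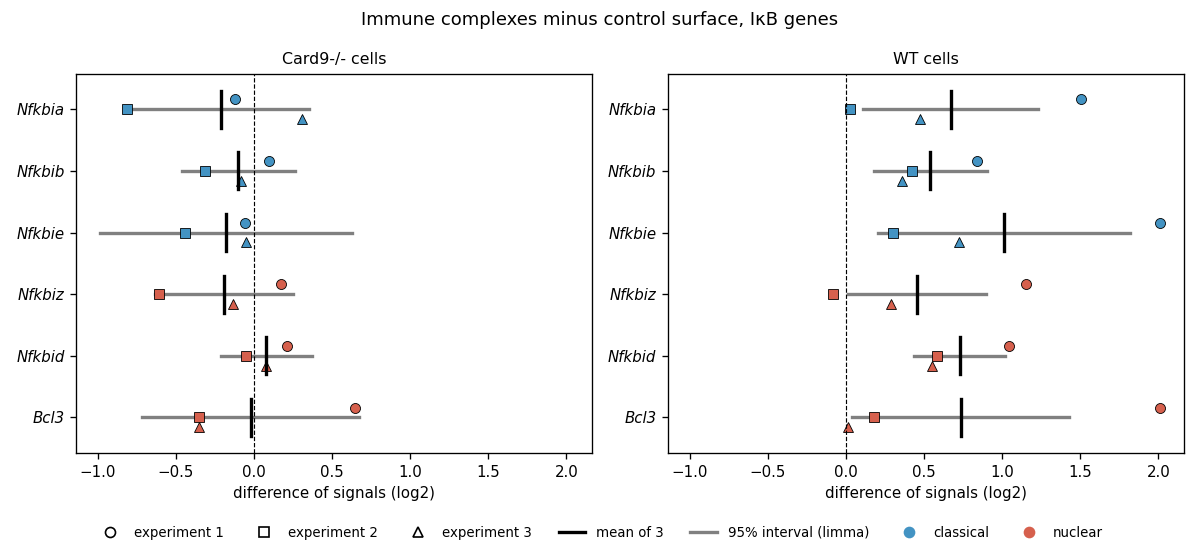
IC minus control difference of log2 signals (horizontal axis) of the 6 genes in *Card9*-/- cells (left) and WT cells (right). A symbol marks an experiment, a black tick the mean of 3, grey lines are 95% confidence intervals from limma and colours are the 2 classes. The symbols of experiment 1 are the highest of each row in WT cells, at 2.01 for *Nfkbie* and *Bcl3*.

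The response to ICs of *Card9*-/- cells lay below that of WT cells for all 6 genes in all 3 experiments (16.6% of all clusters did). The median difference between the responses was -0.70, against -0.030 for all clusters. With limma, 0 of the 6 passed (0% of all clusters did), 5 had an unadjusted p under 0.05 on the lower side (2.65% of all clusters did), and the factorial test gave 0. The mean was -1.19 for *Nfkbie* (standard error 0.52), -0.88 for *Nfkbia*, -0.75 for *Bcl3*, -0.65 for *Nfkbid* (standard error 0.19) and -0.64 for *Nfkbib* and *Nfkbiz* (limma adjusted p = 0.999 for each of the 6). Without experiment 1 the values of *Nfkbie*, *Nfkbia* and *Bcl3* were -0.75, -0.50 and -0.45. *Nfkbie* was below its control in 3 of 3 *Card9*-/- experiments and above it in 3 of 3 WT experiments. Its differences in *Card9*-/- cells were -0.058, -0.44 and -0.048 in experiments 1, 2 and 3. For 9 of the 10 neutrophil markers the difference between the responses was above 0 in all 3 experiments, as for 3583 of 28848 clusters. The median of these 10 markers was 0.16, with 0 at an unadjusted p under 0.05, and their part in the result was not tested.

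Over the 4 groups, the order of the mean levels, lowest first, was *Card9*-/- IC, *Card9*-/- control, WT control and WT IC for 5 of the 6 genes. For *Nfkbid* the *Card9*-/- groups changed places (9.68 ± 0.44 in *Card9*-/- IC and 9.60 ± 0.46 in *Card9*-/- control cells, SD, n = 3). Of the neighbours in this order, *Card9*-/- IC and *Card9*-/- control, *Card9*-/- control and WT control, and WT IC and WT control did not differ past the limma threshold for any of the 6 genes, while *Card9*-/- IC and WT control, neighbours for *Nfkbid*, were not tested against each other. The ends of the order, *Card9*-/- IC and WT IC, differed past it for *Nfkbib* and *Nfkbid* as given above.

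The values of classical and nuclear members overlapped. Between the genotypes on ICs, the median of the 3 classical genes was -1.39 (-1.53, -1.55 and -0.77 in experiments 1, 2 and 3) and that of the 3 nuclear genes -1.18 (-1.41, -1.16 and -0.90). On the control surface these medians were -0.42 for the classical and -0.50 for the nuclear genes. For ICs against control they were -0.18 and -0.020 in *Card9*-/- cells, and 0.67 and 0.73 in WT cells. These values depended on single experiments. Without experiment 1 the classical and nuclear medians were -0.24 and -0.35 in *Card9*-/- cells and 0.39 and 0.10 in WT cells. Without experiment 2 they were 0.0074 and 0.14 in *Card9*-/- cells. With all 3 experiments, the ranges of the 3 members of a class overlapped in each of these comparisons, and each class held 1 of the 2 genes that passed on ICs.

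The likeness of the genes over the arrays depended on whether differences between experiments were kept. After each experiment's mean was removed, Pearson's r over the 12 arrays was 0.897 to 0.941 for the 3 classical pairs, 0.897 to 0.945 for the 3 nuclear pairs and 0.842 to 0.968 for the 9 pairs across the classes. The highest, 0.968, joined a classical and a nuclear gene, *Nfkbia* and *Nfkbiz*. With the experiment means kept in, r was 0.871 to 0.928, 0.476 to 0.938 and 0.691 to 0.923 for these 3 kinds of pair. The pair of *Nfkbiz* and *Nfkbid* had 0.476, against 0.903 with the means removed, and *Nfkbid* and *Bcl3* had 0.647 against 0.897. Among 28847 other clusters ranked by r with the means removed, *Nfkbiz* was number 4 for *Nfkbia*, *Nfkbia* number 7 for *Nfkbiz*, and *Nfkbib* number 8 for *Nfkbid*. These were the closest places of the members. At the far end, *Nfkbie* was number 224 for *Nfkbid* and *Bcl3* number 219 for *Nfkbie*. These are descriptions over arrays that share 3 experiments and the same groups, and they carry no test.

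**Figure D4:**
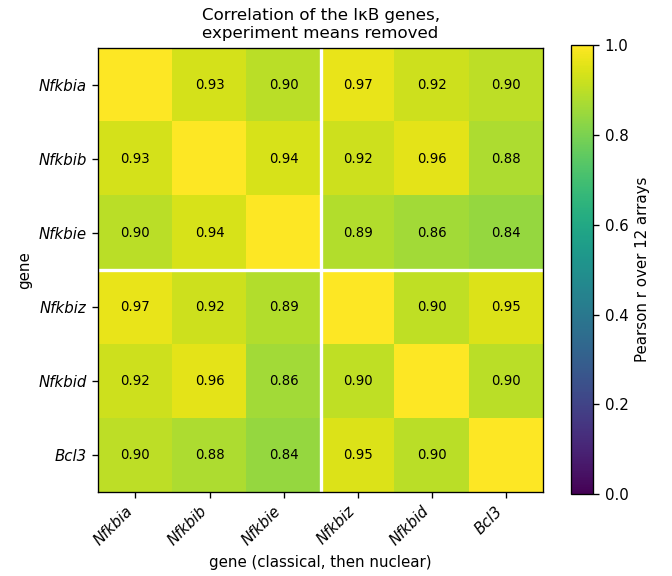
Pearson's r between the 6 genes over 12 arrays with the mean of each experiment removed (colour scale from 0 to 1), classical genes first and white lines between the classes. All off-diagonal cells lie between 0.842 and 0.968 with the means removed; with the means kept in, the lowest is 0.476.

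By the same measure, each gene was set against all other clusters. The 3 most similar to *Nfkbia* were *Relb*, which encodes an NFκB subunit (r = 0.971), *Tnfaip3*, which encodes the deubiquitinase A20 (0.97), and the kinase gene *Pim1* (0.968). For *Nfkbiz* the first was *Zc3h12a* (0.988), which encodes Regnase-1, an endonuclease that degrades *Nfkbiz* mRNA among others, followed by *Spata13* and *Dgat2* (0.985 and 0.984). *Gadd45b*, *Ralgds* and *Slc15a3* led for *Nfkbid* (0.985, 0.979 and 0.972). *Batf*, *Traf1* and *Stx6* led for *Nfkbib* (0.979, 0.978 and 0.976), and *Capns2*, *Traf1* and *Dusp2*, which encodes a MAP kinase phosphatase, for *Nfkbie* (0.971 each). For *Bcl3* they were *Ebi3*, which encodes a subunit of IL-27 and IL-35, *Mefv* and *Cgas* (0.983, 0.981 and 0.977). When the experiment means were kept in, 4 of these 18 entries stayed among the 3 most similar genes of the same member, at other ranks.

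The machinery around the IκB proteins was read from lists of genes chosen with earlier results of these data known. Of the genes in these lists, 0 passed the limma test in either of the 2 comparisons that follow. Most genes named from a list are those with its smallest p in these comparisons. Of 4 measured NFκB subunits, 4 (all at an unadjusted p under 0.05) had a lower mean in *Card9*-/- IC than in WT IC cells, all in 3 of 3 experiments (list median -0.88). Among all 28848 clusters, 15444 had a lower mean, 5.1% an unadjusted p under 0.05 on the lower side, and 15.4% were lower in all 3 experiments. *Relb* and *Nfkb2*, which encode the subunits of the non-canonical pathway, had log2 differences of -1.33 and -1.26. In WT cells on ICs against control the same 2 genes gave 0.61 and 0.79.

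Of 4 measured IκB kinase genes, 2 had an unadjusted p under 0.05 on the lower side (5.1% of all clusters did). The inducible *Ikbke* had a difference of -2.15 (-3.39, -2.76 and -0.29 in experiments 1, 2 and 3) and *Tbk1* one of -0.41, while *Ikbkb*, the catalytic subunit that phosphorylates the classical IκB proteins, had 0.046. *Ikbkb* is named here after its value was seen. Over all 28848 clusters, 13404 had a higher mean in *Card9*-/- IC cells and 1162 an unadjusted p under 0.05 on that side. The list for the ligase that tags phosphorylated IκB held 6 measured genes, among them *Ube2d3*, which encodes a ubiquitin-conjugating enzyme and not a ligase subunit. Of the 6, 5 had a higher mean in *Card9*-/- IC cells, 1 of them at an unadjusted p under 0.05 (list median 0.14). *Skp1*, a core subunit, had 0.38 and *Btrc*, its substrate receptor, 0.23, each in 3 of 3 experiments. In WT cells on ICs *Skp1* gave -0.35 and *Fbxw11*, a second substrate receptor, -0.29.

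Of 10 feedback regulators of the pathway, 9 had a lower mean in *Card9*-/- IC cells, 4 of them at an unadjusted p under 0.05 (list median -0.41). Among all 28848 clusters, 15444 had a lower mean and 5.1% an unadjusted p under 0.05 on that side. *Tnfaip3* had -1.86 (limma adjusted p = 0.0947), *Traf1*, an adapter of TNF receptors, -1.84 (adjusted p = 0.0678) and *Tnip1*, a partner of A20, -1.30 (adjusted p = 0.0687). In WT cells on ICs *Traf1* gave 1.08 and *Tnfaip3* 1.02. Of 6 partners and modifiers of IκB proteins, 1 had an unadjusted p under 0.05, *Zc3h12a* with -1.23 (5.1% of all clusters did on the lower side). *Akirin2*, which encodes a nuclear cofactor of IκBζ, had -0.11. In WT cells on ICs *Zc3h12a* gave 0.69 and *Cyld*, a deubiquitinase that acts on BCL-3, -0.23.

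The 4 genes known from mouse macrophages to need IκBζ gave values near 0 or of mixed sign, with 0 at an unadjusted p under 0.05. Whether they need IκBζ in neutrophils was not tested. *Csf2*, *Il12b* and *Lcn2* had differences of -0.14, -0.11 and 0.036 between *Card9*-/- IC and WT IC cells. *Il6* varied in sign over experiments, at -1.25, -1.82 and 2.15. In WT cells on ICs *Il6* gave 1.14 and *Csf2* 0.26.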

How the data were processed

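Total RNA (150 ng per sample) was amplified, labelled and hybridized to Affymetrix mouse gene arrays. Per transcript cluster, the authors deposited normalized log2 signals, with the background correction, summarization and normalization not given in the sources used here. Of 35556 rows, 6708 outside the range of annotated identifiers were left out and 28848 clusters tested, with no filter on signal.

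The 4 groups were fitted together with limma 3.58.1 (R 4.3.3; lmFit, eBayes), the experiment being a fixed block. Tests were two-sided, with Benjamini-Hochberg adjustment over all clusters and a threshold of 0.05. The labels tie same-numbered arrays to the same experiment; their deviations from group means correlated at 0.671 to 0.867, against -0.727 to 0.354 for different numbers. Whether arrays of a group came from separate animals is not stated. With the block, the spread between experiments is taken out, and p-values measure how evenly the differences between groups ran over these experiments. The "factorial test" is the genotype by surface fit without block or moderation. The procedure was tested on simulated data. The IκB genes, gene lists and naming rule (all members; from each list the 2 smallest p in 2 comparisons; the 3 most similar genes per member) were chosen with earlier results of these data known. Other settings were no block, a random block, quantile normalization, median centring, a signal filter, limma-trend, only the groups compared, identical clusters tested once, and leaving out each experiment. Figures used matplotlib 3.10.9 (Python 3.11.15).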

Additional observations from a re-analysis of the deposited data

Results flagged for a closer look

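*Nfkbie* was singled out because its signal on ICs was below the control in all 3 *Card9*-/- experiments and above it in all 3 WT experiments. The difference between the responses was -1.19 (standard error 0.52, -2.07, -0.74 and -0.77 in experiments 1, 2 and 3), and the interaction term did not pass (limma adjusted p = 0.999). The opposition of the 2 directions was not tested otherwise. Of all 28848 clusters, 2.78% had opposite directions in all 3 experiments of the 2 genotypes.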

How the results depend on the processing

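Over the alternatives, 331 values of single IκB genes kept their direction and their side of the threshold, 9 no longer passed it, 7 newly passed it and 7 turned in direction. With no block, a random block, limma-trend or the factorial test, the log2 differences stay the same. The same holds for the signal filter, only the groups compared and identical clusters tested once, so directions could not turn in these settings. On ICs, *Card9*-/- against WT, the number of IκB genes that passed was 2, and it was 0 with no replicate block, 4 with a random block, 1 with quantile normalization, 1 with median centring, 6 with only the 2 groups compared, 0 in the factorial test and 0 to 2 when each experiment was left out (2, *Nfkbid* and *Bcl3*, without experiment 1). All were lower in *Card9*-/- cells, and the 6 log2 differences stayed between -1.89 and -0.85 when each experiment was left out. The number of all clusters called there was 47, and it was 0 with no replicate block and in the factorial test, 102 with a random block, 22 with median centring, 176 with only the groups compared and 3 to 119 with each experiment left out. In the other 4 comparisons the number of IκB genes that passed was 0 under every alternative run; dropping the block changed no other call of these genes. The clusters called in WT cells on ICs (0) were 7 with a random block and 1 to 51 with each experiment left out. Those called on the control surface (11) were 1 with no replicate block, 0 in the factorial test, 7 with only the groups compared, 5 with identical clusters tested once and 2 to 7 with each experiment left out.

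Directions turned for *Card9*-/- cells on ICs against control without experiment 2 (*Nfkbia* 0.093, *Nfkbib* 0.0074, *Nfkbiz* 0.019, *Bcl3* 0.15, the lowest values with an experiment left out being -0.47, -0.20, -0.37 and -0.35), for *Bcl3* also without experiment 3 (0.15) and with median centring (0.0016), and for *Nfkbie* on the control surface between the genotypes without experiment 2 (0.25, lowest -0.77 without experiment 1). With an experiment left out, the nuclear median of ICs against control was -0.35 to 0.14 in *Card9*-/- cells and 0.10 to 0.82 in WT cells, lowest without experiment 1 in both. Of the 18 most similar genes, 4 remained when experiment means were not subtracted. The cause of these changes was not tested. Each gene had 1 cluster, so no other cluster could be tried. With 3 arrays per group, differences that did not pass are not shown to be absent.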

Other observations

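*Card9*-/- cells on ICs were also set against unstimulated WT cells of the same experiment. *Nfkbia*, *Nfkbib* and *Nfkbid* were lower in *Card9*-/- IC than in WT control cells in all 3 experiments, with log2 differences of -0.35, -1.52 and -0.30 for *Nfkbia*, of -0.19, -1.07 and -0.31 for *Nfkbib* and of -0.37, -0.67 and -0.32 for *Nfkbid* in experiments 1, 2 and 3. *Nfkbie*, *Nfkbiz* and *Bcl3* were higher in experiment 1 (0.47, 0.021 and 0.36) and lower in experiments 2 and 3. Lower values in all 3 experiments were found for 11.1% of all clusters. No test was run on this pair of groups, which differ in genotype and in surface.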
